A study of Homo sapiens with 60 samples.

Results

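Genes of the inhibitor of apoptosis (IAP) system, BIRC2, BIRC3, BIRC6, BIRC7, XIAP and the antagonist DIABLO, were followed through osimertinib treatment and drug removal in 4 lung cancer cell lines. They are 6 of the 19712 genes in the deposited tables, and all 6 entered the fit of every line. The filter on low counts asked for 3 of the 15 libraries of a line at a cutoff between 0.233 and 0.508 CPM, which BIRC7 met in PC9 and HCC827 in every arm but DMSO, and in HCC2935 in the DTP and washout arms and 1 acute library. The set was listed by name and was selected on the acute log2 fold changes, because BIRC7 is among the genes with the largest rises after acute osimertinib. The acute values of all 6 genes in PC9 and HCC827, where that ranking was made, and every BIRC7 value set against DMSO or acute libraries in any line are therefore given as a description and carry no test.

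RNA was sequenced from PC9, HCC827, H1975 and HCC2935, non-small cell lung cancer lines that all carry a mutant EGFR, the receptor kinase that osimertinib blocks. Each line had 5 arms of 3 biological replicates, which gives 20 groups and 60 libraries. DMSO cells were parental cells kept without drug for 21 days and then given the vehicle for 24 h, and acute cells had the same history followed by 500 nM osimertinib for 24 h. Drug-tolerant persisters (DTPs) were the cells left after 21 days in 500 nM osimertinib. Short washout cells were DTPs returned to drug-free medium for 24 h. Long washout cells are described as DTPs kept without drug until they grew again, for 7 days in PC9, 4 days in HCC827, 3 days in H1975 and 10 days in HCC2935. The length of the long washout therefore differed between the lines, and each line is a single culture model of its tumour. Summed over 6 listed proliferation genes, median TPM in long washout was 751.8 in PC9 and 563.9 in HCC2935, above their DTPs (351.9 and 228.2). In HCC827 and H1975 it was 352.8 and 313.2, overlapping DTPs (362.5 and 360.1) and below DMSO (947.5 and 1127.7).

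IAP proteins carry baculoviral IAP repeat (BIR) domains, which bind caspases or other partners, and several also carry a RING domain that makes them ubiquitin ligases. XIAP directly blocks the initiator caspase of the mitochondrial pathway and the executioner caspases. The cellular IAPs encoded by BIRC2 and BIRC3 sit in TNF receptor complexes, where they ubiquitinate RIPK1 and keep the kinase of the alternative NF-kB pathway low, and BIRC3 is itself a well known NF-kB target. DIABLO, also called SMAC, leaves mitochondria when their outer membrane opens and displaces caspases from IAPs. BIRC6 is a very large ubiquitin-conjugating enzyme with 1 BIR domain. BIRC7, also called livin or ML-IAP, is best known from melanoma, where the transcription factor MITF drives it.

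The bases before the BIRC7 start are shown because BIRC7 is the gene with the widest change and because its known regulator, MITF, and the related TFE factors bind the E-box letters CACGTG and CATGTG. The window holds 250 bases upstream of the RefSeq start in GRCh38.p14, chr20:63235655-63235904, plus strand, and capitals mark the E-box letters. The last bases of the window lie inside the gene as GENCODE draws it.
BIRC7: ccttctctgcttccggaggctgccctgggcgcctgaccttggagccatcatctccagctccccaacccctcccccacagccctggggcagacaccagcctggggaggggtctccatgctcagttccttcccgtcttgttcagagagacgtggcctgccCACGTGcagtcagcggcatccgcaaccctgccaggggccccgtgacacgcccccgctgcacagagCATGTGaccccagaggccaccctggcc
CACGTG, which reads the same on both strands, begins 92 bases before the start, and CATGTG begins 27 bases before it. Of 35116 promoter windows of the same length, 6.35% held CACGTG, 9.42% held CATGTG or its reverse complement CACATG, and 0.538% held both. The forkhead letters GTAAACA, searched on both strands and present in 2.98% of the windows, were not among these bases. None of these letters was found in the windows of BIRC2, BIRC6 or DIABLO. For BIRC3 CACATG began 99 bases before the start, and 1 of the 3 XIAP starts had CATGTG 91 bases before it. These matches are letters in a window and say nothing of which factor was bound.

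In GENCODE coordinates on hg38, BIRC7 lies at chr20:63235883-63240507 on the plus strand. BIRC3 and BIRC2 are neighbours on chromosome 11, at chr11:102317450-102339403 and chr11:102347211-102378670, both on the plus strand. XIAP lies at chrX:123859724-123913979 and BIRC6 at chr2:32357028-32618899, both on the plus strand. DIABLO lies at chr12:122207662-122227534 on the minus strand. DIABLO is listed in the annotation under 2 overlapping entries and also overlaps B3GNT4 on the opposite strand and AC048338.1 on its own strand, so that its counts are uncertain to the extent that reads were shared. AC048338.1 had 0 to 4.47 CPM over the 60 libraries, and DIABLO had 23.5 to 60.7 CPM. XIAP has 3 processed pseudogenes that are not in the table, and its counts carry the same uncertainty.

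Estimated counts summed to 17.7 to 49.1 M per library, with medians of 40.2 M in PC9, 19.7 M in HCC827, 42.9 M in H1975 and 21.6 M in HCC2935. Every library resembled its own line more than another line. In 12 libraries the profile was closer to another arm of the line than to its own arm, 7 of them in HCC827, 3 in H1975, 1 in HCC2935 and 1 in PC9, which was the third long washout library (mean r of 0.979 with its own arm and 0.992 with short washout). The 5 epithelial markers summed to 1636 to 13641 TPM. The 8 leukocyte and fibroblast markers summed to 5.40 to 206 TPM, most of it from the collagen gene COL1A1, and the leukocyte markers PTPRC and CD3E each stayed at or under 3.49 TPM. In bulk RNA a lower value can come from fewer cells of a kind or from less RNA per cell, and these cannot be told apart.

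Values per library below are CPM, counts of a gene per 1 M counts with library sizes scaled over all 60 libraries. The edgeR tests within a line scaled the 15 libraries of that line, so that their folds can differ slightly from ratios of these CPM. TPM, which is also corrected for transcript length, is used where levels of different genes are compared. Lists of other genes are given by their counts of calls and their median. A change was called at an edgeR adjusted p under 0.05 over all genes tested in that line. Over the 20 groups, group means of BIRC7 ran from 0.159 to 19.2 TPM and those of BIRC3 from 0.979 to 63.5 TPM. BIRC2 means ran from 19.6 to 53.5 TPM, XIAP means from 19.6 to 31.8 TPM, BIRC6 means from 19.3 to 41.9 TPM and DIABLO means from 37.4 to 83.9 TPM. BIRC7 and BIRC3 thus spanned 124-fold and 66.4-fold in CPM from the lowest to the highest group mean, against 2.50-fold for BIRC2, 2.24-fold for DIABLO, 1.89-fold for BIRC6 and 1.84-fold for XIAP.

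BIRC7 was nearly silent in all 4 lines under DMSO, and its level under osimertinib took different courses. In PC9 and HCC827 it was higher in acute, DTP and both washout arms than in DMSO, in H1975 it was higher in acute cells, while the DTPs overlapped DMSO, and in HCC2935 it was higher in DTPs, while the acute range overlapped DMSO. The 3 DMSO libraries of PC9 had 0.121, 0.212 and 0.116 CPM of BIRC7, a sum of 17 counts. After acute osimertinib PC9 had 16.6, 24.9 and 14.1 CPM, and DTPs had 7.76, 5.98 and 10.2 CPM. All acute libraries thus lay above all DTP libraries, and both lay far above DMSO.

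Short washout PC9 cells held 6.41, 6.11 and 3.46 CPM of BIRC7, a range that overlaps that of the DTPs. Long washout cells held 2.23, 1.08 and 3.95 CPM, all below the DTPs and all above DMSO. On the log2 scale the described difference from DMSO was 6.86 ± 0.54 (SE, n = 3 against 3) for acute osimertinib, 5.65 for DTPs and 3.95 for long washout. BIRC7 fell from DTPs to long washout in PC9, by 1.71 ± 0.38 on the log2 scale (SE, edgeR adjusted p = 0.00431), and without the third long washout library, which resembled short washout, it fell by 2.23 (edgeR adjusted p = 0.000222). The drop within the first 24 h without drug, 0.669-fold, did not pass the test (edgeR adjusted p = 0.344).

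In HCC827 the DMSO libraries had 0.465, 0 and 0.180 CPM of BIRC7, a sum of 13 counts. Acute libraries had 3.96, 4.86 and 2.64 CPM and DTP libraries 4.63, 2.88 and 3.98 CPM. Unlike in PC9, the acute and DTP ranges overlapped, with a log2 difference of 0.05. Short washout had 6.22, 3.65 and 4.32 CPM and long washout 2.32, 3.12 and 2.62 CPM, so that every HCC827 library with a history of drug exceeded every DMSO library. The described log2 difference from DMSO was 4.11 for acute osimertinib, 4.16 for DTPs and 3.64 for long washout, and it moved to 5.25, 5.30 and 4.78 without the DMSO library that had 0.465 CPM. Neither short washout (log2 difference 0.30, edgeR adjusted p = 1) nor long washout (-0.52, edgeR adjusted p = 0.9999) passed the test against DTPs, in a line where 0% of 14665 genes did at either washout, with 291 and 502 genes at an unadjusted p under 0.05.

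H1975 gave 0.649, 0.288 and 0.328 CPM of BIRC7 under DMSO, and 3.47, 3.54 and 7.24 CPM after acute osimertinib. The described acute difference was 11-fold, or 3.46 ± 0.50 on the log2 scale (SE, n = 3 against 3). H1975 DTPs had 0.640, 0.310 and 0.384 CPM, which overlapped DMSO, with a log2 difference of -3.43 ± 0.50 from acute cells and of 0.02 ± 0.51 from DMSO (SE). Short washout libraries of H1975 had 0.264, 0.256 and 0.582 CPM and long washout libraries 1.01, 0.418 and 1.01 CPM, and neither was called against DTPs by edgeR.

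In HCC2935 the order was the other way round. DMSO libraries had 0.0411, 0.187 and 0.373 CPM of BIRC7, a sum of 13 counts, and acute libraries 0.268, 0.206 and 0.504 CPM. These ranges overlap, with a log2 difference of 0.74 ± 0.68 (SE, n = 3 against 3). DTPs had 0.842, 2.03 and 2.07 CPM, above every DMSO and acute library, at a described 8.25-fold of DMSO (log2 3.05 ± 0.62, SE, and 3.84 without the third DMSO library) and 4.93-fold of acute cells. After short washout the libraries had 1.19, 1.65 and 1.32 CPM and after long washout 1.78, 1.81 and 0.80 CPM. The level 10 days after drug removal was 7.40-fold that of DMSO.

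**Figure D1:**
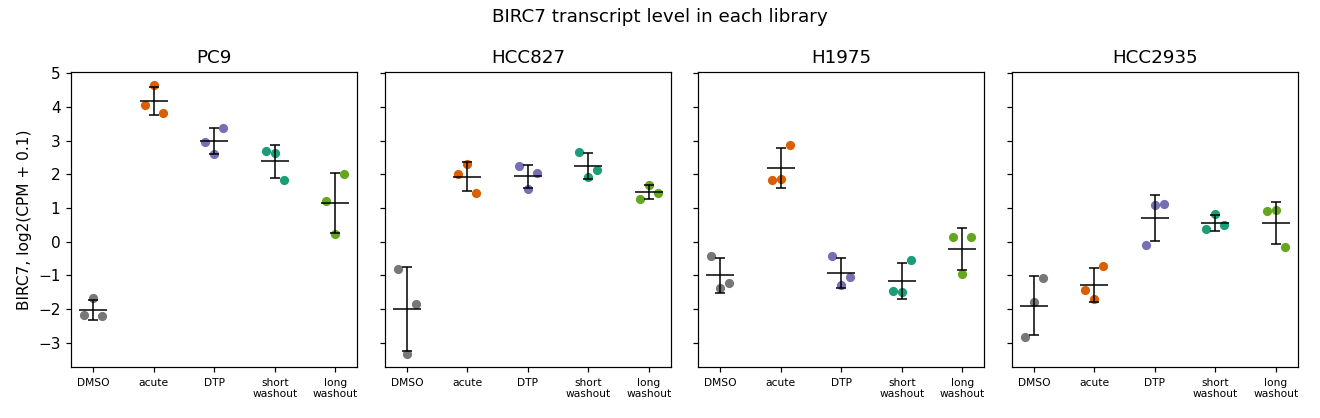
BIRC7 as log2(CPM + 0.1), 1 point per library with the mean and 1 SD of each group of 3, for the 5 arms of each line. The acute libraries are highest in PC9 (14.1 to 24.9 CPM) and H1975 (3.47 to 7.24 CPM), while in HCC2935 the DTP and washout libraries (0.80 to 2.07 CPM) exceed the acute ones (0.206 to 0.504 CPM).

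The courses of BIRC7 in H1975 and HCC2935 were also set against each other in a fit of all 60 libraries, again as a description. The acute difference from DMSO in H1975 minus that in HCC2935 was 2.72 ± 0.90 on the log2 scale (SE), and 1.78 to 3.74 when 1 replicate number was left out. For DTPs it was -3.01 ± 0.81 (SE), and -3.69 to -2.72.

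Ranked by group mean TPM, BIRC7 was highest in acute PC9 cells (19.2 ± 5.17 TPM, SD, n = 3), whose libraries did not overlap the next group, PC9 DTPs (10.1 ± 2.73 TPM). Of the 19 pairs of neighbours in that order, 17 overlapped. The other gap lay between HCC2935 short washout (2.22 ± 0.341 TPM) and H1975 long washout (0.997 ± 0.389 TPM). By group mean, all drug-exposed groups of PC9 and HCC827, acute H1975 cells and the DTP and washout groups of HCC2935 lie above it. The 4 DMSO groups, the other H1975 groups and acute HCC2935 cells lie below it. Single libraries cross it, since the lowest PC9 long washout library (1.212 TPM) lay below the highest of H1975 long washout (1.234 TPM).

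Because BIRC7 is best known from melanocytic cells, melanocyte markers were looked up beside it. The 6 markers summed to 1.27 to 12.9 TPM over the libraries. SOX10 was at 0 in 59 of 60 libraries and TYR at 0 in 41. PMEL, a melanosome fibre protein, was higher in PC9 DTPs than in DMSO (log2 2.01, edgeR adjusted p = 3.53e-06) and lower in HCC827 DTPs (-1.09, edgeR adjusted p = 0.019). TYRP1, a pigment enzyme, never exceeded 1.21 TPM, was at 0 in 13 libraries and met the count filter in PC9 alone. Its log2 difference in PC9 DTPs, 4.43, is given without a test. A gene this low may pass the filter only through the arms where it is higher. The part of these genes in the BIRC7 values was not tested.

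Of the MITF and TFE factors, TFEB, a regulator of lysosome genes, was higher in DTPs than in DMSO in PC9 (log2 2.17, edgeR adjusted p = 8.49e-07), H1975 (1.16, edgeR adjusted p = 0.00126) and HCC2935 (1.29, edgeR adjusted p = 0.000154), and after acute osimertinib in H1975 (1.40, edgeR adjusted p = 0.0003). In HCC2935 the acute TFEB difference was 0.55 (edgeR adjusted p = 0.0544), and in HCC827 DTPs TFEB was not called. MITF itself was higher in PC9 DTPs (0.58, edgeR adjusted p = 0.00196), lower in HCC827 DTPs (-0.62, edgeR adjusted p = 0.00138) and lower in acute HCC2935 cells (-0.68, edgeR adjusted p = 0.0122). TFE3 rose in HCC827 DTPs by 0.73 and in H1975 by 0.67 acutely and 0.76 in DTPs, and fell by 0.27 in acute HCC2935 cells. The median of the 3 or 4 factors tested ran from 0.14 to 0.76 over these 6 comparisons, which called 43.4% to 69.2% of all genes. The part of these factors in the BIRC7 values was not tested.

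The gene next to BIRC7, NKAIN4, is transcribed towards it from chr20:63240784-63272694 on the minus strand, 277 bases past the end of BIRC7. In PC9 NKAIN4 had 0.0606, 0.0940 and 0.0289 CPM under DMSO, and 4.66, 8.04 and 4.72 CPM after acute osimertinib. H1975 libraries had 1.48, 0.621 and 0.502 CPM of NKAIN4 under DMSO, 6.07, 13.6 and 22.8 CPM after acute osimertinib and 0.397, 0.232 and 0.192 CPM in DTPs. HCC2935 libraries had 0.0823, 0 and 0 CPM under DMSO, 0, 0.155 and 0 CPM after acute osimertinib and 1.77, 2.35 and 0.80 CPM in DTPs. In all 3 of these lines NKAIN4 was high in the arms where BIRC7 was high.

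Against DMSO, the log2 difference of NKAIN4 in DTPs was 6.26 in PC9, 4.14 in HCC827 and 5.57 in HCC2935. In these lines its DMSO libraries lay below the count cutoff, so that it entered the fits through drug-exposed arms alone. The values are therefore a description without a test, as is the acute HCC2935 value of 0.63. In H1975, where the DMSO libraries passed the cutoff, NKAIN4 fell in DTPs (-1.70, edgeR adjusted p = 0.0184). After acute osimertinib it rose in that line (4.00, edgeR adjusted p = 1.68e-05). Without strand-specific counts, reads from 2 genes that face each other at so short a distance may not be told apart, and whether the counting used strand is not given in the sources used here. Further along chromosome 20, ARFGAP1, which acts on Golgi vesicles, was higher in all 6 of the DTP comparisons in 4 lines and acute comparisons in H1975 and HCC2935 (log2 0.31 to 2.09), and COL20A1, a collagen gene, in 5 of 6. Of the 10 neighbours listed, 7 or 8 passed the count filter in each line. NKAIN4 is among them, and the counts that follow include it. In DTPs 3 of 7 rose in PC9, 6 of 7 in HCC827, 2 of 8 in H1975, where 2 fell, and 4 of 8 in HCC2935, beside medians of all genes between 0.02 and 0.06 on the log2 scale. Of all genes, 69.2%, 43.4%, 51.7% and 52.8% were called in these DTP comparisons in that order, higher and lower together. Acutely 3 of 8 rose in H1975 and 4 of 8 in HCC2935, and none fell, beside 51.6% and 47.1% of all genes called.

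**Figure D2:**
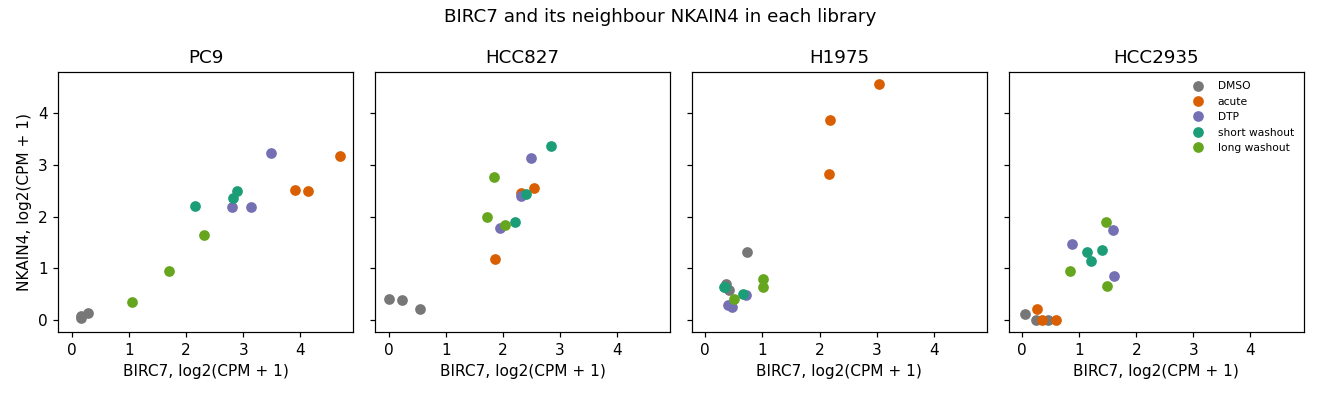
NKAIN4 against its neighbour BIRC7, each as log2(CPM + 1), with a panel for each line and 1 point per library, coloured by arm. The DMSO libraries lie at the lower left of every panel, the acute libraries at the upper right in H1975, and the acute HCC2935 libraries beside DMSO.

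Over 13804 genes that averaged 1 CPM or more, the mean of each line was subtracted from log2(CPM + 1), which removes differences in level between lines. The 5 genes that then followed BIRC7 most closely over the 60 libraries were KLHL30 (Pearson r 0.886), NKAIN4 (0.883), PINK1 (0.876), ALPG (0.873) and RABGAP1L (0.858). These libraries share lines, arms and depth, so that r is a description. PINK1 encodes a kinase of mitochondrial quality control and ALPG an alkaline phosphatase. In the 4 groups looked up, ALPG differed from DMSO by 5.80 on that scale in acute PC9 cells, 3.01 in HCC827 DTPs, 3.46 in acute H1975 cells and 2.08 in HCC2935 DTPs. NKAIN4, PINK1 and RABGAP1L were also above DMSO in all 4 groups, whereas KLHL30 differed by -0.20 in HCC2935 DTPs. BIRC7 itself lay above DMSO in these 4 groups, so that genes picked for following it would tend to do so as well.

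BIRC3, the NF-kB-inducible cellular IAP, moved in different directions in different lines. It was higher in DTPs than in DMSO in PC9 and HCC2935 and lower in HCC827, and it stayed low throughout in H1975. PC9 libraries had 30.7, 31.7 and 44.3 CPM under DMSO and 94.0, 132 and 172 CPM after acute osimertinib, which do not overlap (described log2 difference 1.87). PC9 DTPs had 103, 97.1 and 84.9 CPM, a rise of 1.39 ± 0.37 over DMSO on the log2 scale (SE, edgeR adjusted p = 0.00354).

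A day after drug removal PC9 cells had 210, 233 and 222 CPM of BIRC3, more than in every other PC9 library and 2.34-fold above DTPs. That difference missed the threshold in the fit of the whole line (log2 1.23 ± 0.36, SE, edgeR adjusted p = 0.0585) and passed it with DESeq2 (DESeq2 adjusted p = 0.0394) and in edgeR on the 6 libraries alone (edgeR adjusted p = 0.00011). Long washout libraries of PC9 had 44.7, 52.2 and 155 CPM. The highest of them is the third, the library that resembled short washout. BIRC3 in long washout was called higher than in DMSO with it (1.23, edgeR adjusted p = 0.0135), but not without it (0.44, edgeR adjusted p = 0.112) or without the first DMSO library (1.14, edgeR adjusted p = 0.052). Against DTPs the difference of -0.16 (edgeR adjusted p = 0.745) became -0.92 without the third long washout library (edgeR adjusted p = 0.00225).

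HCC827 had 94.7, 70.9 and 123 CPM of BIRC3 under DMSO and 90.0, 82.6 and 91.4 CPM after acute osimertinib. Its DTPs had 26.3, 71.9 and 43.0 CPM, of which 1 library lay inside the DMSO range. BIRC3 fell from DMSO to DTPs by 1.02 ± 0.30 on the log2 scale (SE, edgeR adjusted p = 0.0122), a call that held when each of the 6 libraries was left out. Short washout libraries had 37.6, 40.9 and 47.1 CPM and long washout libraries 47.6, 39.9 and 70.0 CPM. Long washout was called lower than DMSO (-0.87, edgeR adjusted p = 0.0285) but not when the first or the third DMSO library or the first or second long washout library was left out, with -0.67 to -0.88 in those 4 fits. All 5 epithelial markers were lower in HCC827 DTPs than in DMSO (median -1.57) and 4 of 5 tested leukocyte and fibroblast markers were higher (median 2.63), in a comparison that called 43.4% of all genes. The part of these markers in the BIRC3 values was not tested. The DTPs were also called lower than acute cells (-0.86, edgeR adjusted p = 0.0414), which was lost without any acute library or without the first or the third DTP library.

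H1975 had by far the least BIRC3, with 1.24, 6.10 and 2.66 CPM under DMSO and 5.26, 4.06 and 1.31 CPM after acute osimertinib. Its DTPs had 5.48, 8.36 and 5.79 CPM, short washout 8.75, 12.3 and 8.53 CPM and long washout 5.20, 6.15 and 4.55 CPM. None of the 6 comparisons called BIRC3 in H1975 with all libraries. The second DMSO library decided this, since without it DTPs were called higher than DMSO (log2 1.70 against 0.95 with it, edgeR adjusted p = 0.00783 against 0.111) and so was long washout (1.40, edgeR adjusted p = 0.0211).

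In HCC2935 the DMSO libraries had 72.1, 54.0 and 107 CPM of BIRC3 and the acute libraries 60.9, 47.9 and 75.2 CPM. DTPs had 291, 85.8 and 109 CPM, so that 1 library was far above the other 2, and 1 lay inside the DMSO range. DTPs were called higher than DMSO (1.07 ± 0.39 on the log2 scale, SE, edgeR adjusted p = 0.0307) and than acute cells (1.39, edgeR adjusted p = 0.00929). Without the first DTP library these were 0.34 (edgeR adjusted p = 0.4) and 0.66 (edgeR adjusted p = 0.107), and the call against DMSO was also lost without the first or second DMSO library (1.01 and 0.86). Short washout had 181, 213 and 132 CPM and long washout 122, 258 and 152 CPM, all above every DMSO library. Long washout was 2.32-fold above DMSO (edgeR adjusted p = 0.0202), which was lost without the first or second DMSO library or without the second long washout library (0.82 to 1.16 on the log2 scale).

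BIRC2, the other cellular IAP, was also higher in DTPs than in DMSO in PC9 and HCC2935, with less spread between libraries than BIRC3. In HCC2935 the DMSO libraries had 40.4, 29.8 and 38.5 CPM and the acute libraries 51.1, 45.8 and 37.0 CPM. DTPs had 97.5, 90.6 and 77.1 CPM, short washout 83.5, 91.4 and 90.0 CPM and long washout 83.2, 109 and 79.8 CPM. The 9 libraries after 21 days of drug all lay above the 6 others. BIRC2 rose 2.46-fold from DMSO to DTPs (log2 1.30 ± 0.15, SE, edgeR adjusted p = 2.59e-06), 1.97-fold from acute cells to DTPs (edgeR adjusted p = 5.73e-05) and was still 2.55-fold above DMSO after 10 days without drug (edgeR adjusted p = 2.92e-06). These 3 calls held under every alternative and every left-out library.

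PC9 libraries had 55.5, 45.3 and 49.5 CPM of BIRC2 under DMSO, 71.6, 82.7 and 73.2 CPM after acute osimertinib and 62.5, 69.5 and 71.1 CPM in DTPs. DMSO lay below both, and the rise in DTPs was 1.33-fold (log2 0.41 ± 0.12, SE, edgeR adjusted p = 0.00663). Short washout had 81.9, 83.2 and 77 CPM. Long washout had 66.4, 54.6 and 79.4 CPM, overlapping DMSO, and its call against DMSO (0.41, edgeR adjusted p = 0.0123) was lost without the third long washout library (0.27, edgeR adjusted p = 0.058) and without the second DMSO library (0.34, edgeR adjusted p = 0.0569).

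In HCC827 BIRC2 kept between 67.8 and 92.1 CPM in all 15 libraries, and no comparison called it. H1975 had 37.4, 63.8 and 43.8 CPM under DMSO, and 53.1 to 68.6 CPM in the other 12 libraries. The second DMSO library is the one that also had the highest BIRC3 of its group. With it no BIRC2 comparison of H1975 was called, and without it BIRC2 was called higher than DMSO in acute cells (log2 0.53, edgeR adjusted p = 0.00106), DTPs (0.49, edgeR adjusted p = 0.00162) and long washout (0.42, edgeR adjusted p = 0.00448). In acute HCC2935 cells BIRC2 was called only without the third acute library (0.43, edgeR adjusted p = 0.0341).

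**Figure D3:**
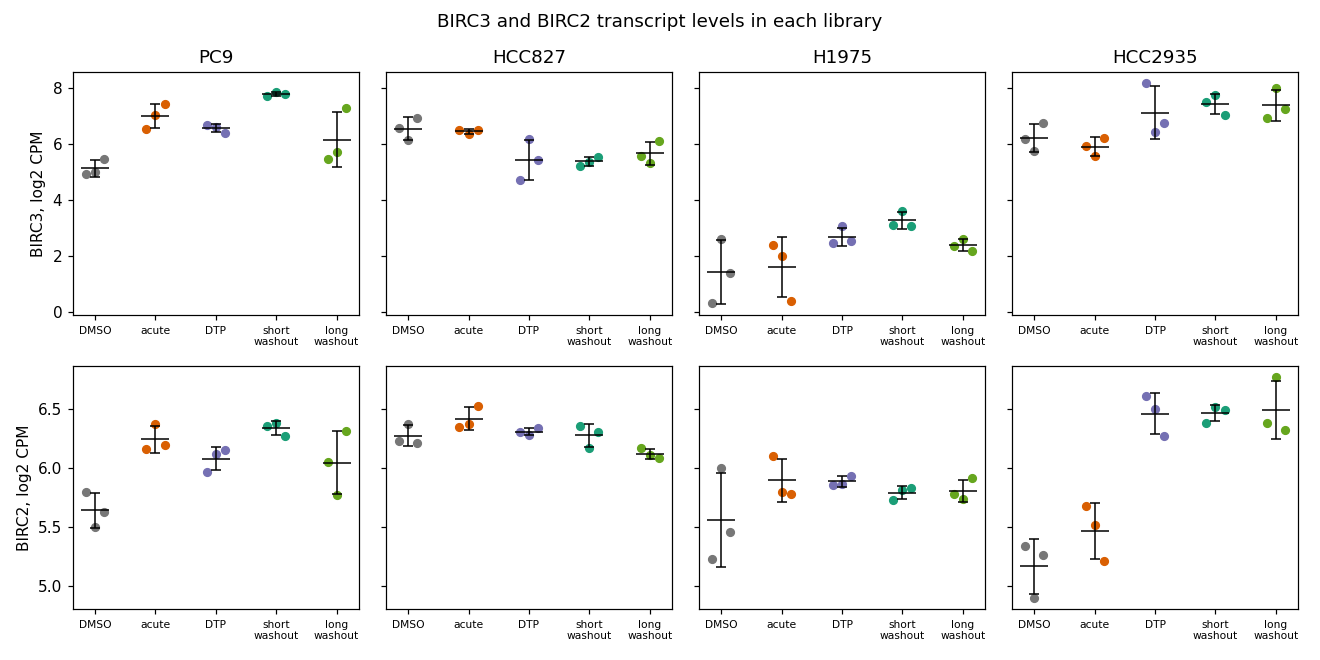
BIRC3 (upper row) and BIRC2 (lower row) as log2 CPM, 1 point per library with the mean and 1 SD of each group of 3, for the 5 arms of each line. BIRC3 separates the lines, with 1.24 to 12.3 CPM in H1975, and single libraries stand out in PC9 long washout (155 CPM) and HCC2935 DTPs (291 CPM), while BIRC2 steps up in HCC2935 from at most 51.1 CPM in DMSO and acute cells to at least 77.1 CPM.

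The DTP response differed between the 4 lines for both cellular IAPs (edgeR adjusted p = 1.35e-06 for BIRC2 and 0.0017 for BIRC3), in a test that called 63.9% of genes. The BIRC3 result was lost without the first replicates (edgeR adjusted p = 0.0732). Between H1975 and HCC2935 alone the BIRC2 response differed by -1.02 ± 0.19 on the log2 scale (SE, edgeR adjusted p = 4.06e-05), lower in H1975, in a test that called 29.8% of genes, and that of BIRC3 by -0.09 (edgeR adjusted p = 0.95). This pair was chosen after the values were seen.

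BIRC2 and BIRC3 lie side by side, and 7 listed genes around them on chromosome 11 gave counts in both directions. In HCC2935 DTPs 5 of the 6 tested were higher than in DMSO and none was lower, among them DCUN1D5 (log2 0.56, edgeR adjusted p = 0.000352) and TMEM123 (0.29, edgeR adjusted p = 0.0171), and DYNC2H1 (2.76, edgeR adjusted p = 3.29e-05), a motor of cilia. In PC9 DTPs 1 of 6 was higher and 3 were lower, DCUN1D5 (-1.13, edgeR adjusted p = 1.68e-06) and TMEM123 (-0.42, edgeR adjusted p = 0.00153) among the latter. The counts were 0 higher and 2 lower in HCC827 DTPs, 2 and 0 in H1975 DTPs, 0 and 2 in acute H1975 cells, and 4 and 1 in acute HCC2935 cells, beside median changes of -0.24, 0.26, 0.11 and 0.59 for these genes in that order. The shares of all genes called in these comparisons are those given for the neighbours of BIRC7.

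Genes most like BIRC3 over the 60 libraries, in the same search, were OSBP (Pearson r 0.752), UBE4A (0.727), RELB (0.726), SIK3 (0.723) and NFKB2 (0.711). RELB and NFKB2 encode the DNA-binding pair of the alternative NF-kB pathway. As for BIRC7, these values describe libraries that share lines and arms.

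XIAP, the direct caspase inhibitor, stayed within 50.9 to 105 CPM in every library, and its calls were small. In H1975 the DMSO libraries had 71.6, 56.6 and 65.7 CPM and the acute libraries 91.8, 89.5 and 90.6 CPM, which do not overlap. XIAP rose acutely by 0.47 ± 0.10 on the log2 scale, or 1.39-fold (SE, edgeR adjusted p = 0.0011). H1975 DTPs had 64.8, 63.3 and 60.5 CPM and were lower than acute cells (0.685-fold, edgeR adjusted p = 0.000832).

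HCC2935 went the other way. DMSO libraries had 62.8, 80.1 and 90.9 CPM of XIAP and acute libraries 56.0, 54.8 and 54.9 CPM, and XIAP fell by 0.48 ± 0.14 on the log2 scale (SE, edgeR adjusted p = 0.0121). Without the third DMSO library the difference was -0.35 (edgeR adjusted p = 0.0653). The acute responses of H1975 and HCC2935 differed by 0.97 ± 0.19 (SE, edgeR adjusted p = 0.000366), in a test that called 15.2% of genes, and that call held without each replicate number in turn.

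HCC827 DTPs had 87.7, 70.8 and 60.4 CPM of XIAP against 102, 98.6 and 104 CPM under DMSO, a fall of 0.47 ± 0.16 on the log2 scale (SE, edgeR adjusted p = 0.0288). The call was lost without the first or the third DMSO library or the second or the third DTP library (-0.38 to -0.47), and on the TPM scale. In PC9 XIAP ranged from 66.4 to 105 CPM, with the highest group mean in short washout (105, 81.8 and 88.4 CPM), and no comparison called it. On log2 TPM the PC9 DTPs were called higher than DMSO (0.33, limma adjusted p = 0.0411), but on that scale the median of all genes stood at 0.30, against 0.06 on the count scale.

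BIRC6 was called in 2 of its 22 tests. It ranged from 135 to 205 CPM in PC9, 165 to 256 CPM in HCC827, 124 to 180 CPM in H1975 and 190 to 293 CPM in HCC2935. In HCC827 the DMSO libraries had 256, 244 and 238 CPM and the long washout libraries 174, 165 and 179 CPM, a fall of 0.50 ± 0.12 on the log2 scale (SE, edgeR adjusted p = 0.00486) that held without each library. PC9 DTPs (135, 157 and 144 CPM) lay below DMSO (164, 182 and 176 CPM), by 0.28 ± 0.11 (SE, edgeR adjusted p = 0.0338). That call was lost without the second or the third DMSO library or the first or the third DTP library (-0.23 to -0.30), and on log2 TPM the difference was -0.03, with the median of all genes at 0.30. With all libraries in the edgeR fit, neither H1975 nor HCC2935 gave a call for BIRC6. For DTPs against acute cells it was called in H1975 with DESeq2 (DESeq2 adjusted p = 0.0455), and in HCC2935 without the first acute library (-0.41, edgeR adjusted p = 0.0161) or the second DTP library (-0.37, edgeR adjusted p = 0.0442). The DTP response of BIRC6 differed between the 4 lines (edgeR adjusted p = 0.0367) but not without any 1 replicate number (edgeR adjusted p = 0.104 to 0.185).

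DIABLO, the IAP antagonist, had the narrowest range of changes among the 6 genes, from -0.20 to 0.22 on the log2 scale over its 22 tests. It stood at 49.9 to 58.2 CPM in PC9, 48.9 to 60.7 CPM in HCC827, 23.8 to 31.4 CPM in H1975 and 23.5 to 31.9 CPM in HCC2935. PC9 and HCC827 thus had more DIABLO than H1975 and HCC2935 in every library. Acute H1975 cells had 27.0, 23.8 and 25.4 CPM against 27.9, 29.8 and 28.6 CPM under DMSO and 29.9, 29.7 and 30.0 CPM in DTPs. The acute fall was 0.873-fold (edgeR adjusted p = 0.042) and DTPs were 1.16-fold above acute cells (edgeR adjusted p = 0.0359). Both calls were lost in 5 of the 6 fits that left out a library, all but those without the first acute library.

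In PC9 DTPs the DIABLO difference from DMSO was -0.02 on the log2 count scale (edgeR adjusted p = 0.808) and turned to 0.23 on log2 TPM (limma adjusted p = 0.0196). The median of all genes moved by 0.25 between those 2 scales in that comparison, so that relative to it DIABLO was not higher. That shift was 0.27 for PC9 DTPs against acute cells, 0.16 for PC9 long washout against DMSO, 0.15 for HCC2935 DTPs against DMSO and 0.19 for HCC2935 DTPs against acute cells. On log2 TPM the share of calls that were higher went from 51.6% to 66% in PC9 DTPs against DMSO, from 47.5% to 84.4% against acute cells, from 52.2% to 71.1% in PC9 long washout against DMSO and from 54.9% to 43.3% against DTPs. In HCC2935 it went from 51.1% to 63.2% for DTPs against DMSO, from 51.0% to 70.4% against acute cells and from 52.0% to 62.8% for long washout against DMSO.

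**Figure D4:**
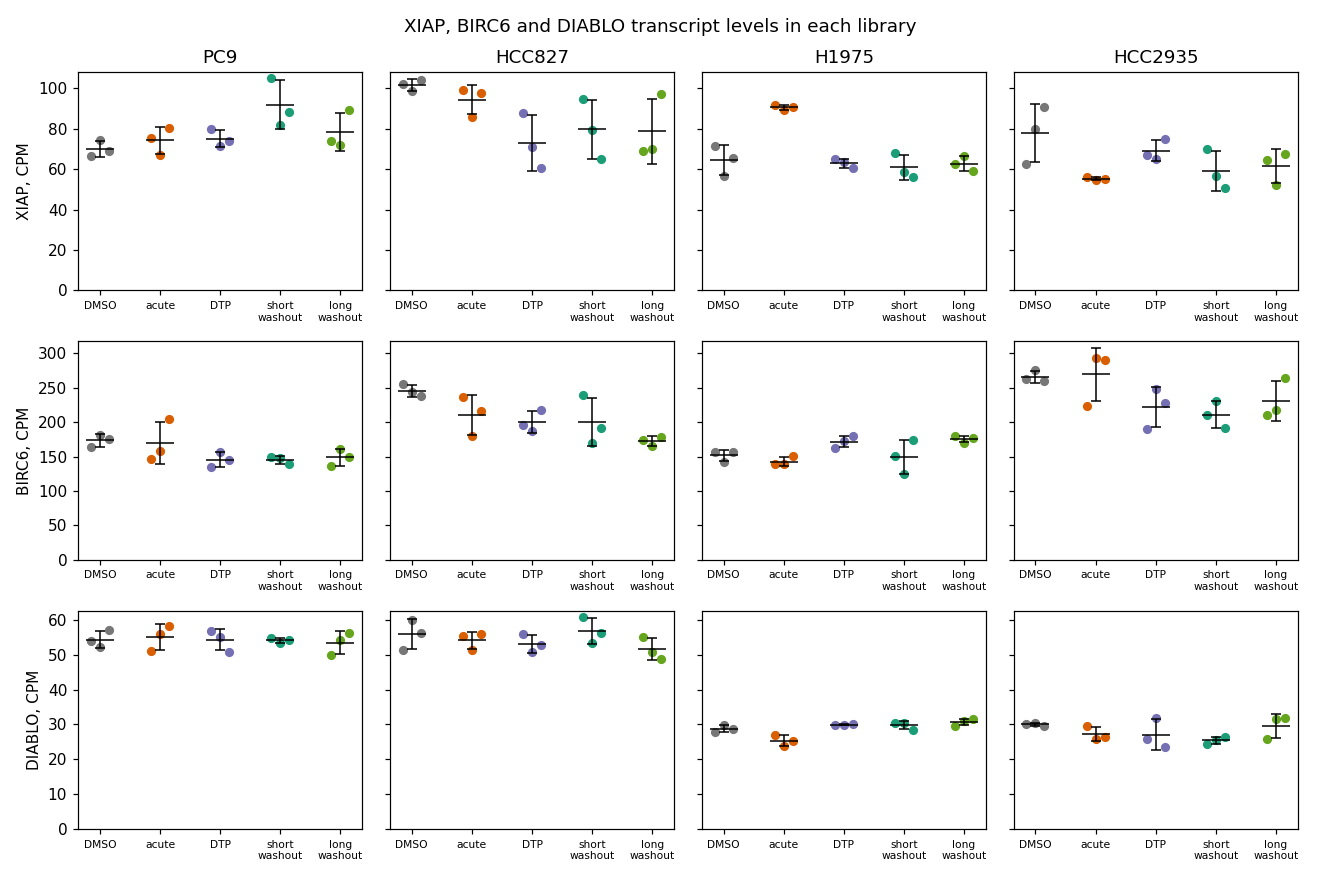
XIAP, BIRC6 and DIABLO in CPM on linear axes from 0, 1 point per library with the mean and 1 SD of each group of 3, for the 5 arms of each line. Group means of XIAP, BIRC6 and DIABLO span 1.84-fold, 1.89-fold and 2.24-fold, and DIABLO is higher in PC9 and HCC827 (48.9 to 60.7 CPM) than in H1975 and HCC2935 (23.5 to 31.9 CPM).

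Counted over all comparisons, 118 of the 144 values for the 6 genes were tested and 22 were called, 12 higher and 10 lower. Of the 8 BIRC7 tests, all of washout, 1 was called. BIRC2 was called higher in 5 of its 22 tests and never lower, and BIRC3 higher in 5 and lower in 3. XIAP was called higher in 1 and lower in 3, DIABLO in 1 each way, and BIRC6 lower in 2.

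These counts stand against comparisons in which a large share of all genes was called. For DTPs against DMSO, 69.2% of genes were called in PC9, where 2 of 5 tested members rose and 1 fell, 43.4% in HCC827, where 2 of 5 fell, 51.7% in H1975, where none of 5 was called, and 52.8% in HCC2935, where 2 of 5 rose. For DTPs against acute cells the shares were 33.9% in PC9 with no member called, 29.4% in HCC827 with 1 lower, 37.2% in H1975 with 1 higher and 1 lower, and 44.7% in HCC2935 with 2 higher. For long washout against DMSO they were 44.9% in PC9 with 2 higher, 42% in HCC827 with 2 lower, 53.3% in H1975 with none and 43.3% in HCC2935 with 2 higher. BIRC7 is not in these counts.

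For acute osimertinib against DMSO, 51.6% of genes were called in H1975, with 1 member higher and 1 lower, and 47.1% in HCC2935, with 1 lower. The acute comparisons of PC9 and HCC827, where the members are described only, called 66.2% and 39% of genes. Short washout against DTPs called 5.92% of genes in PC9, 0% in HCC827, 0.0585% in H1975 and 3.14% in HCC2935, and long washout against DTPs 37.2%, 0%, 0.0065% and 11.8% in the same order. Of the 48 washout tests of the 6 genes, 5 had an unadjusted p under 0.05 and 1 was called, BIRC7 in PC9 long washout. Over the 4 lines the long washout response of BIRC7 differed (edgeR adjusted p = 0.0353), in a test that called 15.2% of genes, but not without any 1 replicate number (edgeR adjusted p = 0.0658 to 0.301).

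**Figure D5:**
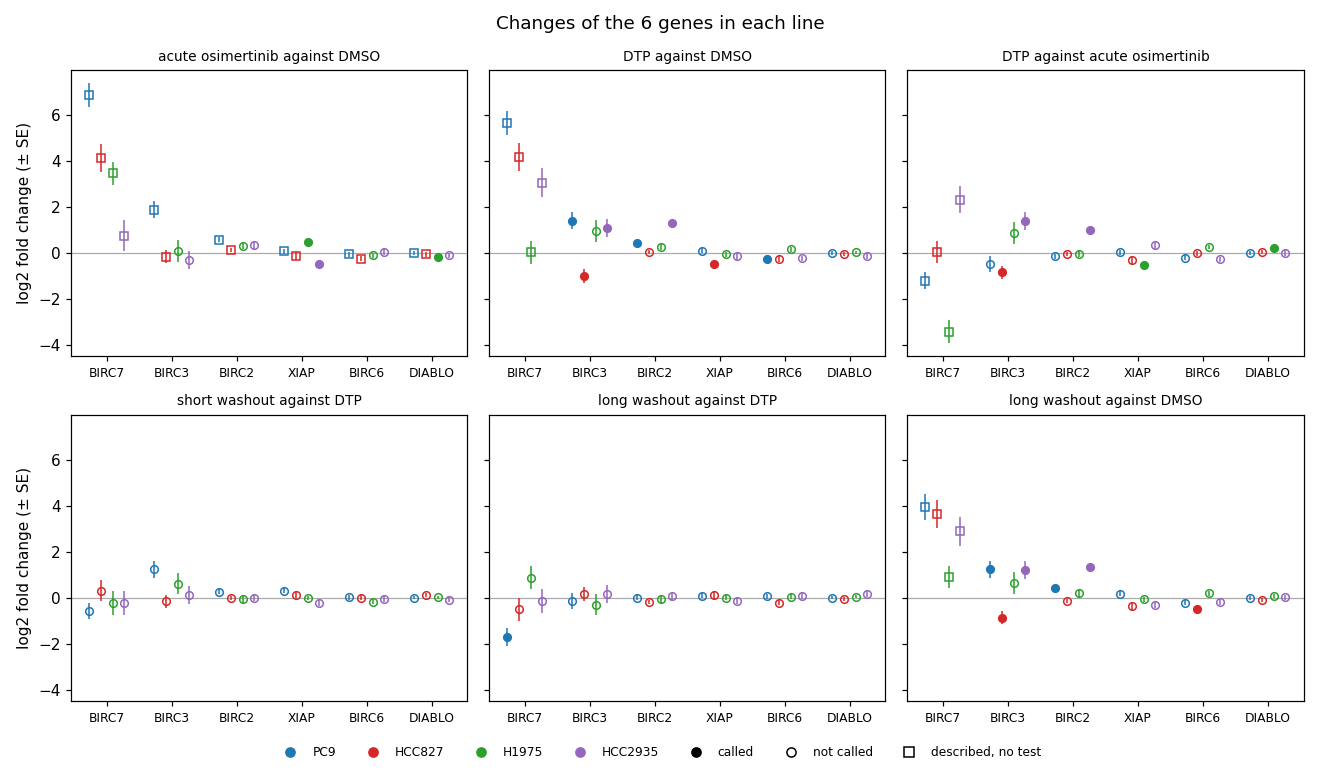
Log2 fold changes of the 6 genes in the 6 comparisons of each line, with a panel for each comparison, colours for the lines and bars of 1 SE, filled where edgeR called the change, open circles where it did not and squares where no test was made. BIRC7 has the widest changes, and in the washout panels against DTPs the points farthest from 0 are BIRC7 in PC9 long washout (-1.71) and BIRC3 in PC9 short washout (1.23).

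Other genes of the apoptosis machinery were read from fixed lists, in DTPs against DMSO in 4 lines and acute against DMSO in H1975 and HCC2935, which makes 6 comparisons that share their DMSO libraries within a line. The list counts below stand beside 69.2%, 43.4%, 51.7% and 52.8% of all genes called in DTPs of PC9, HCC827, H1975 and HCC2935. Acutely 51.6% of all genes were called in H1975 and 47.1% in HCC2935. Of the other IAP family genes, BIRC5 (survivin), a mitotic protein, fell in all 6, by 2.34 on the log2 scale in acute H1975 cells, 1.85 in acute HCC2935 cells, 1.74 in PC9 DTPs, 1.12 in HCC827 DTPs, 2.08 in H1975 DTPs and 1.75 in HCC2935 DTPs. It fell together with the 6 proliferation genes, all 6 of which were called lower in each comparison, with medians between -1.47 and -2.16. NAIP, an IAP that senses bacterial proteins in inflammasomes, rose in 5 of 6, by up to 1.77 in HCC2935 DTPs, and acute HCC2935 cells gave 0.70 (edgeR adjusted p = 0.0924).

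Besides DIABLO, 4 IAP antagonists were tested. XAF1, an interferon-inducible partner of XIAP, rose in PC9 DTPs (log2 8.21, edgeR adjusted p = 1.99e-05), HCC827 DTPs (2.40, edgeR adjusted p = 0.000105), acute H1975 cells (1.44, edgeR adjusted p = 0.000392) and H1975 DTPs (0.66, edgeR adjusted p = 0.0449). In HCC2935 it was at 0.24 and -0.51, neither of which passed the test. XAF1 ran from 0 to 45.7 TPM over the libraries, with 2 libraries at 0. A fold as large as that in PC9 DTPs therefore starts near the floor, and its size is imprecise. HTRA2, a mitochondrial protease that binds IAPs, fell in DTPs of PC9 (-0.26) and H1975 (-0.30) and rose in acute HCC2935 cells (0.39). Of the 4 genes, 1 rose and 1 fell in PC9 DTPs, 3 rose in HCC827 DTPs, 2 rose in acute H1975 cells, 1 rose and 2 fell in H1975 DTPs, 1 rose in acute HCC2935 cells and 1 fell in HCC2935 DTPs. Their median ran from -0.22 to 0.89.

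Among the 9 caspase and apoptosome genes, CYCS, which encodes cytochrome c, fell in all 6 comparisons, by 0.57 to 1.81 on the log2 scale. APAF1, the apoptosome scaffold, rose in PC9 DTPs (0.87), acute H1975 cells (0.66) and acute HCC2935 cells (0.31) and fell in HCC2935 DTPs (-0.38). The list had 4 higher and 4 lower in PC9 DTPs, 0 and 3 in HCC827 DTPs, 2 and 3 in H1975 DTPs, 1 and 4 in HCC2935 DTPs, 4 and 2 in acute H1975 cells and 2 and 3 in acute HCC2935 cells. Its median ran from -0.31 to 0.25 on the log2 scale over these 6 comparisons, beside medians of all genes from 0.02 to 0.10.

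The partners of the cellular IAPs and the death receptor genes, 16 in all, had 9 higher and 6 lower in PC9 DTPs, 1 and 2 of 16 in HCC827 DTPs, 3 and 6 of 15 in H1975 DTPs and 6 and 1 of 15 in HCC2935 DTPs. Acutely they had 4 and 5 in H1975 and 5 and 6 in HCC2935. TNFSF10, the death ligand TRAIL, rose in 5 of the 6 comparisons, by 3.30 in PC9 DTPs and 2.62 in acute H1975 cells, and HCC827 DTPs gave 0.27 (edgeR adjusted p = 0.623). CD40, a receptor of the alternative NF-kB pathway, also rose in 5 of 6, with 1.35 in HCC2935 DTPs (edgeR adjusted p = 2.35e-06). FADD, the death receptor adaptor, fell in 5 of 6, by 0.25 to 0.89. The median of the list ran from -0.20 to 0.35.

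Of 12 NF-kB factors and feedback targets, 7 were higher and 2 lower in PC9 DTPs, 4 and 0 in HCC827 DTPs, 4 and 1 in H1975 DTPs and 1 and 3 in HCC2935 DTPs, with 4 and 2 in acute H1975 cells and 2 and 4 in acute HCC2935 cells, and medians from -0.40 to 0.45. ICAM1, an adhesion molecule induced by NF-kB, rose in all 6, by 3.12 in PC9 DTPs, 2.23 in H1975 DTPs, 1.71 in HCC2935 DTPs and 0.52 in HCC827 DTPs. CXCL8, the neutrophil chemokine, rose in HCC827 DTPs (3.23, edgeR adjusted p = 0.00549), where BIRC3 fell. It fell in HCC2935 DTPs (-2.63, edgeR adjusted p = 0.000514), where BIRC3 was called higher, a call lost without the first DTP library. ERK-responsive genes, a check that the drug acted, had 4 to 8 of 8 lower in every one of the 6 comparisons and 1 higher in H1975 DTPs alone.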

How the data were processed

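RNA-seq libraries of 4 cell lines in 5 arms with 3 biological replicates each were grouped by the sample labels. Both deposited tables were used, estimated counts for each gene symbol, without normalization, and log2 TPM, to which the authors had added a pseudocount of 0.01. The submitters' processing notes name HISAT2 2.1.0, Salmon 0.8.2 and hg38, and the annotation is not given in the sources used here. Fractional estimated counts were rounded to whole numbers.

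Each line was fitted alone (15 libraries, 5 group means) with edgeR 4.0.16 in R 4.3.3: TMM factors, filterByExpr at its default, quasi-likelihood F-test, and Benjamini-Hochberg adjustment over all genes tested, with calls at 0.05. Differences between lines came from a fit of all 60 libraries. A test on 3 against 3 libraries detects changes only beyond the spread between replicates, and low counts widen it. Genes named beside the members were taken from the most often called of each list, except SOX10, TYR, PTPRC and CD3E, which were named after their values were seen. The members and lists were chosen with earlier results of these data known. Alternatives were RLE size factors, no filter, DESeq2 1.42.0, limma 3.58.1 on log2 TPM and on log2(TPM + 1), a replicate block, the 6 libraries compared alone, and each library left out. The fits were tested on simulated data. Coordinates are from GENCODE on hg38 and sequences from RefSeq (GRCh38.p14), in which all 6 members were matched.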

Additional observations from a re-analysis of the deposited data

Results flagged for a closer look

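Several responses differed between lines. The acute response of XIAP was larger in H1975 than in HCC2935 by 0.97 on the log2 scale (edgeR adjusted p = 0.000366), in a test that called 15.2% of genes. XIAP was higher in every acute H1975 library and lower in every acute HCC2935 library than in DMSO. The DTP response was smaller in H1975 than in HCC2935 for BIRC2 (edgeR adjusted p = 4.06e-05), in a test that called 29.8% of genes. For this DTP test the pair of lines was chosen after the values were seen.

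Over the 4 lines the DTP response differed for BIRC2 (edgeR adjusted p = 1.35e-06), BIRC3 (edgeR adjusted p = 0.0017) and BIRC6 (edgeR adjusted p = 0.0367), in a test that called 63.9% of all genes. The long washout response against DTPs differed for BIRC7 (edgeR adjusted p = 0.0353), in a test that called 15.2%. The lines differed in depth and in the length of the long washout, which cannot be told apart from the line. The BIRC6 and BIRC7 results did not pass without any 1 replicate number, and the BIRC3 result did not pass without the first replicates (edgeR adjusted p = 0.0732).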

How the results depend on the processing

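Of 28 results called for the 6 genes, 19 kept their call under every other setting run for them, 7 for changes within a line and 3 for differences between lines, and 13 of them also with each library, or each replicate number between lines, left out. Changes here are on the log2 scale and the causes were not tested. On log2 TPM and on log2(TPM + 1), BIRC6 in PC9 DTPs against DMSO was -0.030 and -0.028 and XIAP in HCC827 DTPs -0.46 and -0.44, none of them called, and DIABLO turned to a higher call in PC9 DTPs, at 0.23 and 0.22 against DMSO and 0.25 and 0.25 against acute cells. On the 6 libraries compared alone, the calls of BIRC2 (0.43) and BIRC3 (1.25) in PC9 long washout against DMSO, BIRC3 in HCC827 DTPs against acute cells (-0.90), DIABLO in acute H1975 cells (-0.25) and H1975 DTPs against acute cells (0.21), and BIRC3 in HCC2935 DTPs against DMSO (1.04) were lost. DIABLO in H1975 DTPs against acute cells was also lost with no filter (0.22), BIRC3 in HCC2935 DTPs with DESeq2 (1.05), and the BIRC6 difference between the 4 lines with RLE size factors (edgeR adjusted p = 0.0522). The highest XIAP group mean was 0.70 above the lowest in TPM and 0.88 in CPM.

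Deviations of same-numbered libraries had a median r of -0.0102 in PC9, -0.0199 in HCC827, 0.0095 in H1975 and -0.00162 in HCC2935. These medians, over all pairs of arms, gave no sign of a pairing by replicate number shared by all arms. Single pairs ran from -0.204 to 0.237 in PC9, -0.352 to 0.678 in HCC827, -0.626 to 0.586 in H1975 and -0.259 to 0.34 in HCC2935. Whether particular arms were paired, such as DTPs and the washout cells derived from them, was not tested. The main fit of each line did not use replicate numbers. With the replicate block, DIABLO lost its H1975 calls (-0.20 acutely, 0.22 for DTPs against acute cells) and BIRC3 in HCC2935 DTPs was 1.02 (edgeR adjusted p = 0.0565), while BIRC3 in PC9 short washout (edgeR adjusted p = 0.0476), BIRC6 in HCC827 DTPs against DMSO (0.0471), BIRC6 in DTPs against acute cells of H1975 (0.0486) and HCC2935 (0.0477) and the XIAP difference between the 4 lines (0.0463) were called. H1975 genes called in short and long washout against DTPs went from 9 and 1 to 56 and 6 under the block.

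Numbers of genes called in washout moved most. In PC9 short washout 880 genes became 1833 with DESeq2 and 3221 on the 6 libraries alone, where long washout gave 2496 of 5532 against DTPs and 4278 of 6672 against DMSO. HCC827 long washout gave 3 with DESeq2. H1975 short washout gave 17 with no filter, 509 with DESeq2 and 0 on its 6 libraries, and long washout 2, 32 and 2. HCC2935 short washout gave 959 with DESeq2 and long washout 745 on its 6 libraries. On the 6 libraries the share of higher calls went from 65.3% to 54.6% in PC9 short washout and from 54.9% to 68.4% in long washout against DTPs. With DESeq2 it went from 100% to 68.6% in H1975 short washout and from 0% to 18.8% in long washout, and with the block to 87.5% in short washout.

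With 1 library left out, genes called in short washout ranged from 105 to 431 in PC9, 0 to 590 in H1975 and 132 to 486 in HCC2935, and in long washout against DTPs from 3162 to 7387, 0 to 4 and 781 to 2617. The change from DMSO ranged from 0.34 to 1.37 for BIRC3 in HCC2935 DTPs and 0.82 to 1.52 in long washout, 0.44 to 1.54 for BIRC3 and 0.27 to 0.54 for BIRC2 in PC9 long washout, -0.34 to -0.23 for BIRC6 in PC9 DTPs, -0.62 to -0.38 for XIAP in HCC827 DTPs, -1.13 to -0.67 for BIRC3 in HCC827 long washout, -0.24 to -0.16 for DIABLO in acute H1975 cells and -0.62 to -0.35 for XIAP in acute HCC2935 cells. From acute cells to DTPs it ranged from -1.30 to -0.57 for BIRC3 in HCC827, 0.66 to 1.70 for BIRC3 in HCC2935 and 0.18 to 0.26 for DIABLO in H1975. With 1 replicate number left out of all groups, the edgeR adjusted p over 4 lines ranged from 0.0015 to 0.0732 for BIRC3 and 0.104 to 0.185 for BIRC6 in DTPs, and from 0.0658 to 0.301 for BIRC7 in long washout. BIRC7 under DMSO rests on 13 to 61 counts per group of 3, which limits the precision of its folds.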
